A study of Drosophila melanogaster with 17 samples.

Results

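In ovaries of Drosophila melanogaster mutant for cutoff (cuff), 190 protein-coding genes had at least 2-fold more RNA than in wild type while their RNA polymerase II (Pol2) occupancy was nearly level. They were chosen by 4 limits on the authors' genotype values, among the 12371 genes listed in both the RNA-seq and the Pol2 ChIP-seq table. These limits were an RNA value of at least 1000 in wild type, an RNA ratio of mutant to wild type of at least 2, a Pol2 value of at least 500 in wild type, and a Pol2 log2 ratio between -0.2 and 0.2. Of 6342 genes above both level minimums, 3% met all limits. The values that chose the genes are therefore given as a description, with no test of the RNA or Pol2 contrast.

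For each assay there were 3 libraries of wild type (genotype label wt) and 3 of the cuff mutant, from ovaries of females 2 to 4 days old, with about 30 females dissected per replicate. The labels do not name the cuff allele or the genetic background, and no other allele or agent is given for these groups. Total RNA was depleted of ribosomal RNA, so unspliced transcripts could be sequenced as well as mature ones. Each table holds 1 value per genotype, so the libraries are merged and no SD can be given. A pair of values written as a first number to a second is the signal in wild type and then in the mutant, for RNA unless Pol2 is named. A gene is said to pass, or to be higher or lower in a list, at a p of 0.05 or less in the authors' deposited table.

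Cutoff belongs to the complex with Rhino and Deadlock that lets piRNA clusters in heterochromatin be transcribed in the germline. It is related to the Rai1 and DXO family of enzymes that act on RNA 5′ ends. The level of an RNA depends on how fast it is made and how fast it is lost, whereas Pol2 ChIP measures polymerase on the gene, including paused polymerase. In bulk ovary, fewer cells of a type and less RNA per cell cannot be told apart.

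The RNA ratio of the 190 genes ran from 2 to 3.94 with a median of 2.31, and 136 lay under 2.5, 33 from 2.5 to 3 and 21 at 3 or more. Their Pol2 log2 ratio had a median of 0.00, with 91 genes higher and 99 lower in the mutant and 119 within 0.1 of no difference. Summed over the genes, with a pair that has the same values counted once, they held 1.37% of the RNA signal in wild type and 3.39% in the mutant. Their share of the Pol2 signal was 5.86% and 6.05%. Across all 6342 genes above the minimums the median log2 ratio was -0.07 for RNA and -0.10 for Pol2.

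In the authors' deposited table, 174 of the 190 had an RNA p-value of 0.05 or less, where 9.24% of all 12505 RNA genes did in either direction and 5.5% were higher. Of the 6342 genes above both minimums 6.37% were higher and 4.87% lower at that p. Because the RNA ratio chose the genes, this count says nothing further about them. The remaining 16 genes, whose RNA p in the authors' deposited table was above 0.05, are Shawl, gny, Gdh, ec, p130CAS, Pif1A, Pif1B, sec24, CG11448, babo, Cyp18a1, Bap170, Rbcn-3A, CG31224, RpL23A and CG5642. For Pol2, 0 of the 190 had p of 0.05 or less, against 1.46% of all 13797 Pol2 genes, and the lowest was 0.4 in the authors' deposited table. The genes were chosen for a Pol2 ratio near level, so this count follows from the choice and nothing is read from it.

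A Pol2 ratio inside the limits was common. Of the 6342 genes above the minimums, 62% had a Pol2 log2 ratio within 0.2, and 4.43% had RNA at least 2-fold higher. Among the 281 genes with RNA at least 2-fold higher, 67.6% lay within the Pol2 limits (the 190 genes), 73 had more Pol2 signal and 18 had less. Of the 73, 10 had a Pol2 p of 0.05 or less in the authors' deposited table, and of the 18, 0 did. Among the 6061 other genes 61.8% lay within the limits, 6.73% above and 31.5% below. These shares carry no test, and the genes with more RNA lay above the limits in a larger share (26%) and below them in a smaller share (6.41%) than the other genes.

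**Figure D1:**
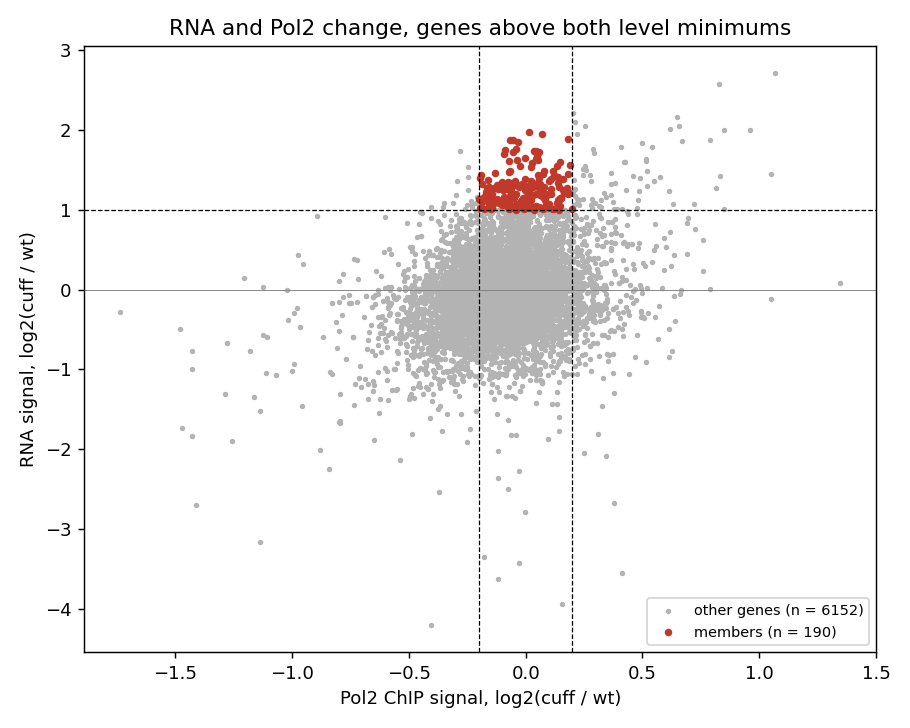
Each point is 1 of 6342 genes above both level minimums, with the Pol2 log2 ratio of mutant to wild type on the x axis and the RNA log2 ratio on the y axis; dashed lines are the limits of the rule. The 190 chosen genes (red) fill the upper middle, up to a log2 of 1.98 in RNA, and most other genes lie around 0 on both axes.

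The limits cut through a continuous range. Just inside the RNA ratio were NFAT (3827 to 7655), trx (13466 to 26956) and jim (4506 to 9030.2), and just outside were chif and CG42231, which share 1 pair of values (9322 to 18626), and CG32549 (1629.9 to 3256). Just inside the RNA minimum were frtz, CG9503 and ec, and just outside were Oseg4 (989.6 to 2560.4), CG16791 (984 to 2839.5) and hiw. The last, highwire, a ubiquitin ligase of the synapse, had RNA values of 928 and 9475, a 10.2-fold difference, and a Pol2 log2 ratio of -0.13. At the upper Pol2 limit Phm (0.20), trpm (0.19) and hppy (0.19) were in, and tweek, CG30345 and CG1815, each at 0.20, were out. At the lower one Inx2 (-0.20), l(3)L1231 (-0.20) and CrebA (-0.19) were in, and Hmu (-0.21), aux (-0.21) and lid (-0.23) were out. Lsp2, CG4038 and gny had the lowest Pol2 values inside, and 0 genes were left out by the Pol2 minimum alone, whereas the RNA minimum alone left out 245 genes with RNA above 0 in wild type, and 22 listed at 0 there that have no ratio.

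Genes of the ecdysone response had the highest median RNA ratio (3.31) among functional groups drawn up after the genes were known. Ecdysone is the steroid hormone that drives moulting, metamorphosis and stages of egg chamber development. Its receptor induces early regulators, which then switch further genes. The nuclear receptor gene Eip75B had an RNA signal of 3111 (wild type) and 11457 (mutant), 3.68-fold higher, and a Pol2 signal of 74057 (wild type) and 70639 (mutant). The nuclear receptor genes Hr4 (1147 to 4242, 3.7-fold) and Hr46, now Hr3 (1355 to 4499.7, 3.32-fold), and br (1544 to 5093, 3.3-fold), which encodes the Broad zinc finger factors, showed a like difference in RNA. Their Pol2 log2 ratios were 0.18, 0.04 and -0.05. Sox14, an ecdysone-induced HMG-box factor, was 2.18-fold higher (1927 to 4201), and Cyp18a1, the enzyme that inactivates ecdysteroids, had RNA values of 1535 to 3203 and did not pass, at p = 0.07 in the authors' deposited table.

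In a list of 24 measured ecdysone genes, 7 had higher RNA at the deposited p and 1 lower, and 16 did not pass, with a median log2 ratio of 0.57 in RNA and -0.01 in Pol2. Over all 11122 genes with signal in every column, the medians were 0.03 and 0.01. The ecdysone list had a median gene length of 32.2 kb. Among all genes above the minimums the median RNA log2 ratio was 0.39 from 16 to 32 kb and 0.61 at 32 kb or more. The RNA-binding, adhesion and neuron lists described below had long genes too, with median lengths of 36.4, 37.8 and 37.1 kb. The follicle cell list had a median of 21.9 kb. Besides the 4 members on the ecdysone list, Eip74EF (1624 to 3056), Eip93F (2837 to 6251) and ImpL2 (571 to 2297) were higher. Their Pol2 log2 ratios were -0.21, 0.24 and -0.33, each just or clearly outside the limits. Eip74EF also missed the 2-fold limit, at 1.88-fold, and ImpL2 the RNA minimum. Eip71CD, a methionine sulfoxide reductase gene, was lower (8436 to 3934). Among the 16 that did not pass were the ecdysone receptor genes EcR (13207 to 18964) and usp (6118 to 7521.5). Likewise ftz-f1 (24350 to 28532) and Eip78C (337 to 326) did not pass. Over the genes of all lists used here, each counted once, 19.8% of 459 measured were higher in RNA. The share among all 12505 RNA genes was 5.5%, and the count of each list below is to be read beside both shares.

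Other transcriptional regulators made up 15 of the genes, with RNA ratios between 2 and 3.85. ush, a zinc finger cofactor of GATA factors, was 3.85-fold higher (1796 to 6912), while its Pol2 values were 68921 (wild type) and 72302 (mutant). cbt, a zinc finger factor whose gene lies inside that of ush, was 2.92-fold higher (2522 to 7365). peb, the Hindsight zinc finger factor of follicle cells, was 2.92-fold higher (1559 to 4558), and kay, the fly Fos subunit of AP-1, 2.65-fold (2873 to 7601). shn, a DNA-binding partner of the BMP effector Mad, was 2.77-fold higher (3799 to 10509). CrebA, which activates genes of the secretory pathway, was 2.64-fold higher (3736 to 9855). mamo, a zinc finger gene needed in the female germline, was 2.49-fold higher (8932 to 22250.4), and Xrp1, a stress-induced bZIP factor, 2.27-fold (2545 to 5785). The remaining genes of the group were MESR4, l(3)neo38, gem, sbb, tim, jim and NFAT.

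Regulators of chromatin and of general transcription numbered 23, all between 2- and 2.81-fold. kis, a CHD-family chromatin remodeller of the trithorax group, was 2.49-fold higher (63722 to 158399), with a Pol2 log2 ratio of 0.06. The CBP acetyltransferase gene nej was 2.72-fold higher (12936 to 35125), spen, a large RNA-binding corepressor, 2.72-fold (20203 to 54969), and CG11873 (Bicra), 2.81-fold (5420.2 to 15242). Histone methyltransferase genes were present in several classes, with trr (2.49-fold, 3004 to 7471), trx (2-fold, 13466 to 26956) and Set2 (2.23-fold, 7193 to 16053), beside the Dot1 methyltransferase gene gpp (2.62-fold, 5996 to 15689.6). The Mediator kinase-module gene skd was 2.55-fold higher (15296 to 39073), the SWI/SNF subunit gene osa 2.01-fold (11294 to 22713), and the bromodomain gene fs(1)h, the fly BET protein, 2.01-fold (12370.5 to 24849.8). Elongation genes were CycT (2.48-fold, 4589.8 to 11379.7), the cyclin of P-TEFb, and Eaf (2.42-fold, 2329.6 to 5647). RpII215, which encodes the largest subunit of Pol2 itself, had RNA values of 8003 (wild type) and 17441 (mutant) and Pol2 values on its gene of 15374 (wild type) and 13680.2 (mutant). Psc, a Polycomb group gene, was 2.03-fold higher (1660.0 to 3371). The rest of the group, within the same range, were rno, pps, Ncoa6, BRWD3, Jarid2, Bap170, IntS1 and upSET.

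In the chromatin list 7 of 39 measured genes were higher in RNA and 1 lower, with 31 not passing and a median log2 ratio of 0.33 in RNA and -0.07 in Pol2. Members were kis, nej, trx, osa and Psc. The others that were higher were ph-p (513 to 1258) and the SWI/SNF ATPase gene brm (6008 to 11368, Pol2 log2 ratio -0.06), which missed the 2-fold limit. pho, the DNA-binding Polycomb factor, was lower in RNA (40525 to 21270.3) with a Pol2 log2 ratio of 0.14.

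Genes of the ubiquitin pathway and large scaffold proteins formed another group, of 8 genes from 2.02- to 3.09-fold. poe, the fly UBR4, was 2.56-fold higher (26064 to 66722), and CG8184, the fly HUWE1, 2.23-fold (17639 to 39305). ctrip, the fly TRIP12, was 2.02-fold higher (22213 to 44906), and Bruce, a giant inhibitor of apoptosis, 2.03-fold (24773 to 50240.2). CG5794 (puf), a ubiquitin-specific protease, was 3.04-fold higher (7003 to 21322), and mask, a large ankyrin-repeat protein, 3.09-fold (17178 to 53041). The group also holds mura. The Pol2 log2 ratios of the 8 ran from -0.15 to 0.11.

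Genes that act on RNA and translation numbered 18 and were all below 2.44-fold. Not1, the scaffold of the CCR4-NOT deadenylase complex, was 2.43-fold higher (27652 to 67117), larp, a La-related RNA-binding protein, 2.14-fold (23035 to 49314), and 4EHP, a cap-binding repressor of translation, 2.07-fold (8393 to 17356). The KH-domain gene how (2.08-fold, 4322 to 9002), bru-2 (2.27-fold, 1345 to 3057), cpo (2.43-fold, 2763 to 6721) and sm (2.25-fold, 5962 to 13392) encode RNA-binding proteins. The SR protein gene B52 (2.37-fold, 2997 to 7100.4) and Doa (2.34-fold, 4941 to 11581), a kinase of SR proteins, act in splicing, and vir (2.22-fold, 1548 to 3431) encodes a subunit of the RNA m6A writer. fs(1)K10, which acts in gurken RNA localisation, was 2.1-fold higher (2947 to 6201). Short genes were present too, with CG4038 (Gar1), a box H/ACA snoRNP protein, 2.11-fold higher (2516 to 5322), qkr58E-1 2.2-fold (1117 to 2458), and RpL23A and CG5642 (eIF3l) with RNA values of 17739.8 to 36116 and 3466 to 6966 that did not pass. DIP1, CG9425 (Helz) and eIF4G2 complete the group. In the list of RNA-binding regulators 6 of 30 were higher and 0 lower, with a median log2 ratio of 0.63 in RNA and -0.01 in Pol2. heph, mbl, ps and Rbp9 were the 4 that are not members.

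**Figure D2:**
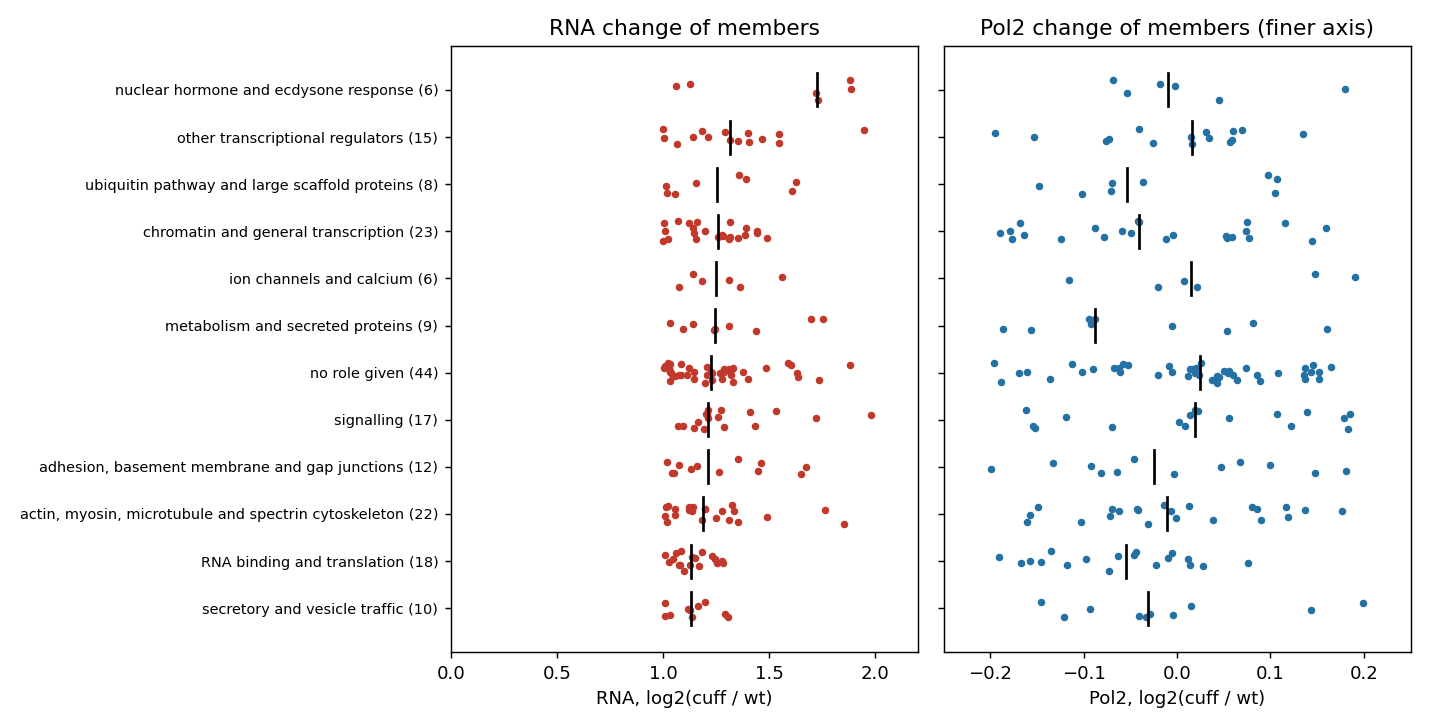
Each point is 1 of the 190 genes, by functional group with its number of genes in brackets; the left panel gives the RNA and the right panel the Pol2 log2 ratio of mutant to wild type, on a finer axis, and bars are group medians. The ecdysone group has the highest RNA median (1.73) and secretory and vesicle traffic the lowest (1.13), and Pol2 medians lie between -0.09 and 0.02.

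Cytoskeletal genes numbered 22. shot, the spectraplakin that links actin to microtubules, was 3.39-fold higher (14619.5 to 49555), with Pol2 values of 55751 (wild type) and 54152 (mutant). cora, the protein 4.1 of septate junctions, was 3.61-fold higher (1582 to 5709), and Msp-300, a giant nesprin of the nuclear envelope and muscle, 2.81-fold (8798 to 24729). zip, the non-muscle myosin II heavy chain, was 2.5-fold higher (22854 to 57225), Mbs, which targets the myosin phosphatase, 2.03-fold (5265 to 10683), and kst, the apical beta-spectrin, 2.48-fold (9764 to 24177). The dynein heavy chain gene Dhc64C was 2.18-fold higher (33721 to 73479) and the dynein intermediate chain gene sw 2.08-fold (1829 to 3808). CG42669 (Svil), a supervillin, was 2.38-fold higher (6629.5 to 15752). The group also holds Shroom, Vrp1, GEFmeso, Chd64, betaTub60D, mim, CG10641 (Swip-1) and p130CAS, and the RNA ratios of the 22 ran from 2.01 to 3.61.

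Of the genes on the basement membrane and integrin list above both minimums, 30% (6 of 20) were members, against 3% of all genes above the minimums. The shares were 28.6% (2 of 7) in the fat body list and 26.7% (4 of 15) in the ecdysone list. In the neuron and hemocyte lists they were 25% each, which is 1 of 4 genes. These shares rest on few genes, and no difference between lists was tested. Over the genes of all lists above the minimums, each counted once, 11.2% of 349 were members. The follicle epithelium and muscle sheath of the ovary rest on basement membrane, which is built of laminin, collagen IV and perlecan and is bound by integrins. The laminin chain genes LanB2 and LanB1 were 3.18-fold (1951 to 6211) and 2.4-fold (6388 to 15332) higher, with Pol2 values of 5764 to 5957 and 10021 to 9585. Both collagen IV genes, which lie next to each other, were higher, Cg25C (Col4a1) 2.56-fold (3710.5 to 9487) and vkg 2.11-fold (4975 to 10492), with Pol2 log2 ratios of -0.05 and 0.10. scb, an integrin alpha subunit, was 2.02-fold higher (5238 to 10592), and dally, a glypican that binds BMP and Wnt ligands, 2.32-fold (3955 to 9170.1).

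Of 27 measured genes on the basement membrane and integrin list, 15 were higher in RNA at the deposited p, 0 lower and 12 did not pass, with a median log2 ratio of 1.05 in RNA and 0.14 in Pol2. Of the 15, 7 lay within the Pol2 limits and 8 above them. A laminin alpha gene, LanA (11579 to 37947, Pol2 log2 ratio 0.29) and the perlecan gene trol (10028 to 41425, 0.25) lay above the limits, and Ppn (796 to 3560.2, 0.66) and Pxn (123 to 605, 0.58) further above. These 3 laminin chain genes thus had RNA ratios of 3.28, 2.4 and 3.18 for LanA, LanB1 and LanB2, of which LanA lay outside the Pol2 limits, and the other laminin alpha gene, wb (1483 to 2835), did not pass. Besides scb, the integrin genes ItgalphaPS4 (285 to 786), Itgbetanu (496 to 1087) and mew (4178 to 7425) were higher in RNA. Their Pol2 log2 ratios were 0.95, 0.87 and 0.14, and the Pol2 increases of ItgalphaPS4 and Itgbetanu passed. The integrin beta gene mys (9913 to 16798) did not pass, and if had near-equal values (1539.9 to 1539).

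**Figure D3:**
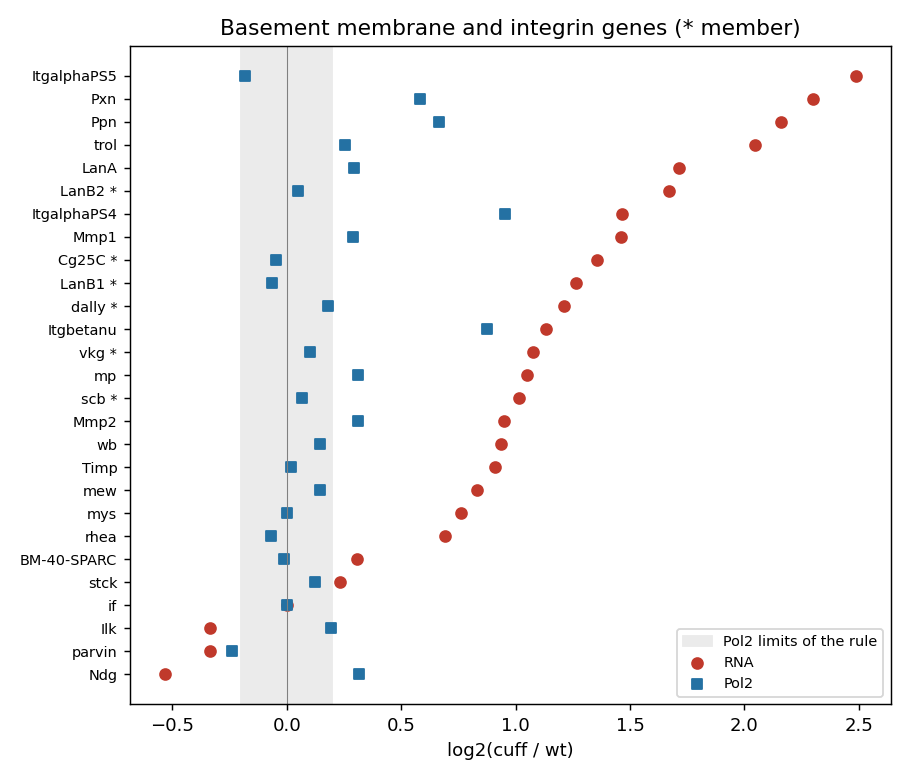
RNA (circles) and Pol2 (squares) log2 ratios of mutant to wild type for each measured basement membrane and integrin gene, ordered by RNA, with the chosen genes starred and the Pol2 limits shaded. The RNA circles of the 6 starred genes lie between 1.02 and 1.67 and their Pol2 squares between -0.06 and 0.18.

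Other adhesion and junction genes among the 190 were Fas2 (2.73-fold, 3013 to 8214), an immunoglobulin-domain adhesion molecule, Fas1 (2.23-fold, 7497 to 16739.6) and Dg (2.06-fold, 10350.0 to 21319.8), the matrix receptor dystroglycan. The ADAMTS-type protease gene stl was 3.14-fold higher (1049 to 3291). The gap junction genes ogre (2.75-fold, 3933 to 10830.5) and Inx2 (2.19-fold, 24147 to 52961) encode innexins. CG6509 (Dlg5) completes the group. In the adhesion and polarity list 8 of 33 were higher, 0 lower and 25 did not pass, with medians of 0.64 and 0.01. Its members are Fas2 and cora, and kirre (7538 to 30542) and rst (5012 to 9335), a pair of related adhesion genes, had more Pol2, with log2 ratios of 0.62 and 0.70.

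Signalling genes numbered 17 and belonged to several pathways. frtz, a planar polarity effector, had the highest ratio of all, 3.94-fold (1001 to 3946), with Pol2 values of 2465 to 2489. The Hippo pathway activators kibra (3.3-fold, 2411 to 7954) and ex (2.32-fold, 1370.3 to 3177) were both members, 2 of 17 on that list and the only ones with a passing RNA difference there, and its medians were 0.23 and -0.01. The EGF receptor gene Egfr was 2.44-fold higher (2248 to 5477), with Pol2 values of 32344 to 30813, and spri, a Ras and Rab effector, 2.24-fold (11130.1 to 24972). In the list of EGF receptor and receptor tyrosine kinase signalling 3 of 30 were higher, these and kek1 (586 to 2254), while the EGF receptor inhibitor gene aos was lower (1953 to 1037), with medians of 0.34 and -0.02. kek1, a further inhibitor of the receptor, had a Pol2 log2 ratio of -0.07 and missed only the RNA minimum.

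Members of the Hedgehog, Wnt and BMP list were Apc (2.42-fold, 4477 to 10831), a negative regulator of Wnt signalling, shn, dally and babo, the activin type I receptor gene (4129.7 to 8659), whose p of 0.09 in the authors' deposited table did not pass. On that list 6 of 35 were higher and 0 lower, with medians of 0.61 and -0.04. Dad, the inhibitory Smad, had RNA values of 462 to 1361 and a Pol2 log2 ratio of -0.10, and failed only the RNA minimum. H (Hairless), the Notch pathway corepressor, was 2.39-fold higher (3281 to 7844), the 1 gene of 19 that passed on the Notch list (medians 0.46 and 0.02), a share near the 5.5% of all RNA genes that were higher. On the JNK and AP-1 list 2 of 16 were higher, kay and slpr (10672 to 19273), with medians of 0.61 and -0.04. Of the JAK-STAT list 0 genes were members, although dome (2694 to 4759) and ken (2591 to 5002) were higher in RNA, 2 of 12, with medians of 0.84 and -0.04. The insulin and TOR list also had 0 members, with S6k higher (1 of 18, also near 5.5%, 7681 to 12573) and medians of 0.47 and -0.04. Further signalling members were Tollo (2.7-fold, 2823 to 7615), a Toll-family receptor, kek5 (2.66-fold, 6159 to 16380.0) and the kinase gene CG43143 (Nuak, 2.89-fold, 2151 to 6219). The ADAM protease gene Meltrin was 2.3-fold higher (4089 to 9409.7) and bou, a small Ly6 protein of septate junctions, 2.14-fold (3137 to 6700.0). The remaining signalling genes were hppy, pcx and hipk.

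**Figure D4:**
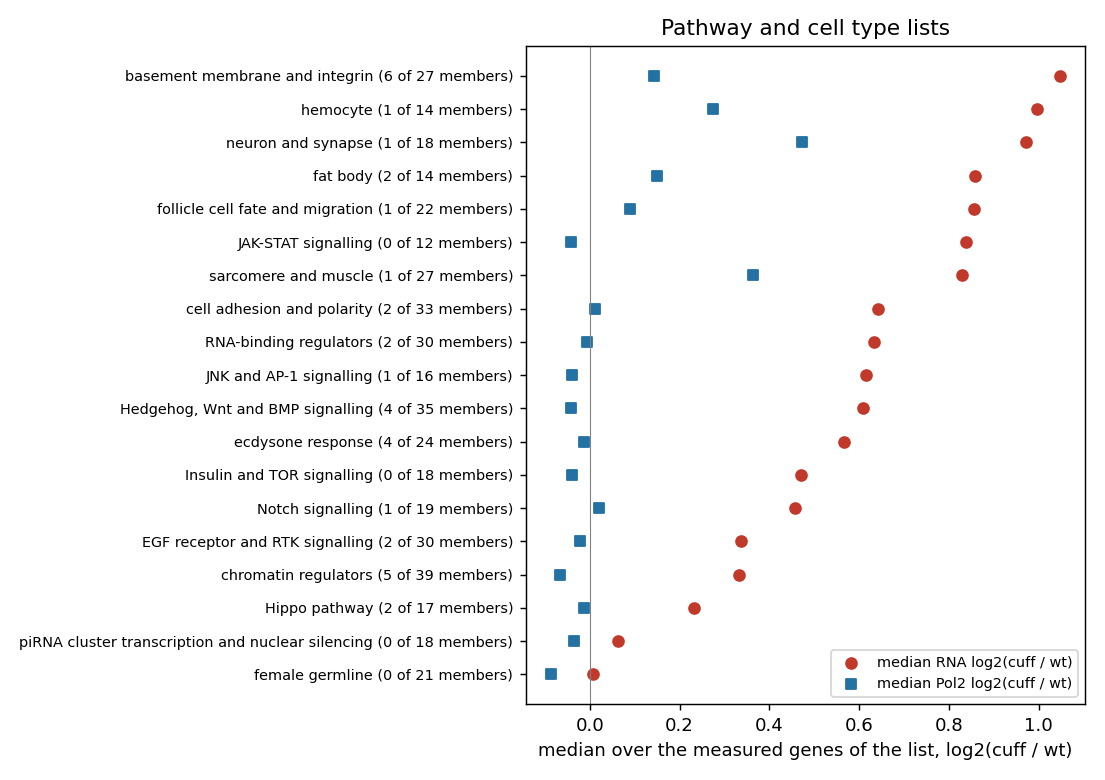
Median RNA (circles) and Pol2 (squares) log2 ratio of mutant to wild type over the measured genes of each of 19 lists, with the number of chosen genes in brackets. RNA medians run from 0.01 (female germline) to 1.05 (basement membrane and integrin), and Pol2 medians lie within 0.2 of 0 except in the hemocyte (0.28), muscle (0.36) and neuron (0.47) lists.

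Among channels and calcium handling, trpm, a magnesium-permeable TRP channel, was 2.95-fold higher (4961 to 14633), Ca-P60A (SERCA), the calcium pump of the endoplasmic reticulum, 2.57-fold (7901 to 20313), Itp-r83A (Itpr), the calcium release channel of that organelle, 2.27-fold (4755 to 10805), and the mechanosensitive channel gene Piezo 2.11-fold (3069 to 6472). The diacylglycerol kinase gene rdgA was 2.21-fold higher (1832 to 4041). Shawl, a potassium channel gene, had RNA values of 2459 to 6098, a ratio of 2.48-fold, and the authors' deposited table lists it at p = 1. gny, a glucosyltransferase gene of N-glycan synthesis, had values of 4753 to 10492 and p = 0.5 there. The next highest RNA p among the 190 was 0.2, for Gdh, ec and p130CAS.

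Secretory genes included the coat genes Sec16 (2.24-fold, 8003 to 17924), gho (Sec24CD, 2.29-fold, 4804 to 11013) and sec24 (4541 to 9144, not passing). These genes serve COPII vesicles, which leave the endoplasmic reticulum. Syx1A, a syntaxin of vesicle fusion, was 2.17-fold higher (3048 to 6606), and Sap-r, a saposin precursor of lysosomes, 2.04-fold (35168 to 71894). Phm, an enzyme that amidates neuropeptides, was 2.01-fold higher (1923 to 3874). Sec71, endoA, Rbcn-3A and CG14299 (Epg5) complete the group, whose 10 ratios ran from 2.01 to 2.47. Among secreted and metabolic proteins were Lsp2, a storage protein of the fat body (3.24-fold, 1109 to 3594), Idgf2, an imaginal disc growth factor (2.48-fold, 4065 to 10085), Adgf-A, an adenosine deaminase (2.71-fold, 1203 to 3256), and Vml, a vitelline membrane protein (3.38-fold, 6337 to 21395). r, which encodes the first enzymes of pyrimidine synthesis, was 2.04-fold higher (9907 to 20254). CG32702 (Cubn), CG10082 (Ip6k) and Gdh complete the group.

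Of the 44 genes left without a group here, Arc1, a capsid-like gene derived from a retroelement, was 2.5-fold higher (2706 to 6755), with Pol2 values of 13266 to 13484. W, which encodes the pro-apoptotic protein Hid, was 3.09-fold higher (1366 to 4222), and CG14438 (sov), a zinc finger gene of heterochromatin silencing, 2.08-fold (7157 to 14872). CG44774 (3.68-fold, 8304 to 30531), CG34347 (3.04-fold, 2106 to 6393), CG34417 (3.01-fold, 3118 to 9382), CG31808 (2.8-fold, 1195 to 3346) and CG9503 (2.64-fold, 1002 to 2643) were the highest of those with a CG name alone, beside CG12912. CG9821 (aqz) was 2.51-fold higher (22866 to 57439) and px 3.11-fold (1623 to 5042). The others ranged down to 2.01-fold, and 39 of the 44 passed.

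Gene length was not used by the rule, but it was already known to go with the direction of RNA change in these tables, so it is described without a test. Lengths came from a RefSeq gene table of assembly Release 6, which matched 186 of the 190 genes (not W, Shroom, RpII215 and sec24). The median length was 14.4 kb, with quartiles of 8.13 and 34.9 kb, against 2.92 kb for the 6079 other genes above the minimums with a length. Of the 190, 72 were longer than 20 kb, or 38.7% of those matched, against 7.53% of the other genes. In contrast, 9 were shorter than 3 kb (4.84%), against 51.5%. The longest were mamo (144 kb), rdgA (122 kb), CG42669 (122 kb), kek5 (119 kb), Eip75B (114 kb) and sm (114 kb). The 9 shortest were bou (0.703 kb), CG4038 (1.35 kb), Vml (1.96 kb), RpL23A, Arc1, Lsp2, CG5642, gny and qkr58E-1.

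By length class, 3 of 2030 genes under 2 kb were among the 190 (0.148%), 10 of 1766 from 2 to 4 kb (0.566%), 32 of 1159 from 4 to 8 kb (2.76%), 54 of 624 from 8 to 16 kb (8.65%), 36 of 361 from 16 to 32 kb (9.97%) and 51 of 325 of 32 kb or more (15.7%). The share thus grew with each class. Over the same classes the median RNA log2 ratio of all genes went from -0.31 to 0.61, and the median Pol2 log2 ratio from -0.17 to 0.08. In the class of 32 kb or more 86 genes had at least 2-fold higher RNA and 59.3% of them were within the Pol2 limits. Among the 281 genes with higher RNA, the 73 above the Pol2 limits had a median length of 23 kb and the 18 below them 9.76 kb. The 82 genes above the minimums with RNA at least 2-fold lower and Pol2 within the same limits had a median of 1.79 kb. Among the 186 matched genes themselves length and RNA log2 ratio had a Spearman's rho of 0.12, and among 6265 genes above the minimums 0.52, as a description over genes that share the same merged libraries.

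**Figure D5:**
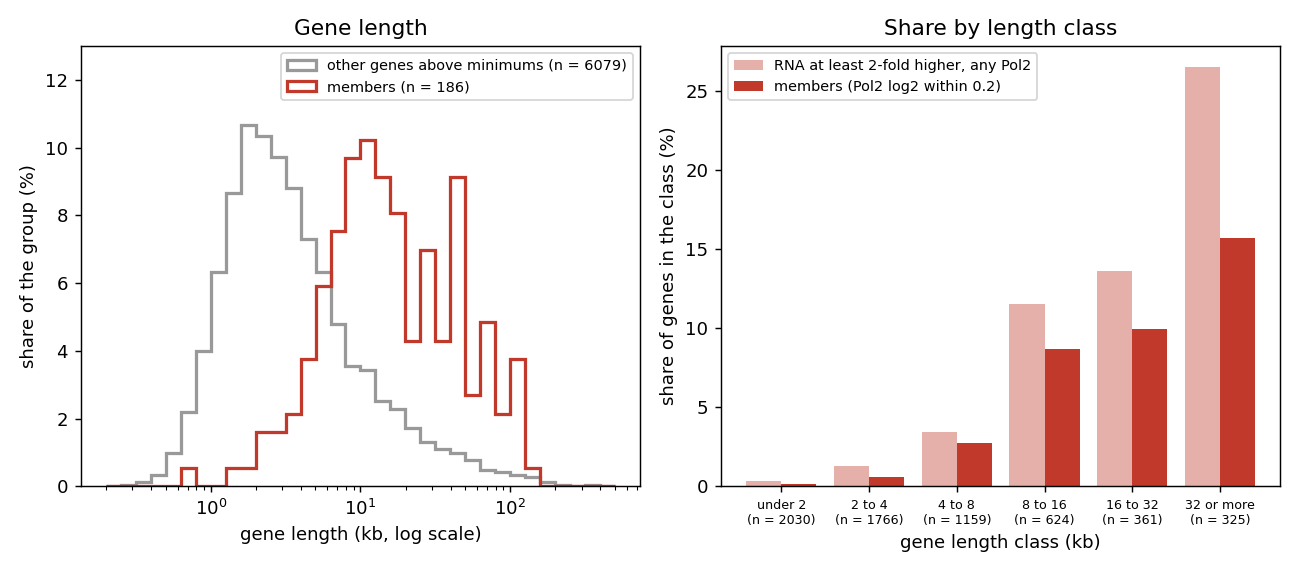
Left, distribution of gene length (log axis) of 186 chosen and 6079 other genes above the minimums, each as a share of its group. Right, for 6 length classes, the share of genes with RNA at least 2-fold higher (light) and of chosen genes (dark); the dark bars go from 0.148% to 15.7%.

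Longer genes also have more annotated transcripts, and the matched genes had a median of 4 RefSeq transcripts against 2 for the other genes, with 11.3% against 36.9% having 1. Within length classes, with medians of the chosen genes rounded down to whole numbers, they were 1 against 1 transcript under 2 kb and 2 against 2 from 2 to 4 kb. They were 2 against 3 from 4 to 8 kb, 3 against 4 from 8 to 16 kb, 5 against 5 from 16 to 32 kb, and 6 against 5 at 32 kb or more. The chosen genes thus had the lower median in 2 classes, the higher in 1 and an equal one in 3.

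The RNA signal per Pol2 signal was low for these genes in wild type. The median ratio of RNA to Pol2 value was 0.379 in wild type and 0.901 in the mutant, against 2.11 and 2.12 for the other genes above the minimums. Neither value is given per length, so the comparison is given within classes. From 8 to 16 kb the ratio was 0.564 for the chosen genes and 1.14 for the others in wild type, and 1.5 and 1.4 in the mutant. From 16 to 32 kb it was 0.416 and 0.583, then 0.913 and 0.734, and at 32 kb or more 0.157 and 0.331, then 0.373 and 0.44. In each of these 3 classes the chosen genes were below the others in wild type and nearer to them, or above them, in the mutant. The wild-type RNA value also enters the ratio that chose the genes, so a low value there is partly built into the choice. The rise in the mutant follows from the rule, which asks for more RNA at a near-level Pol2 value. Nothing is therefore read from the move toward or above the other genes.

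The genes were spread over the genome. The 186 matched genes comprised 27 on arm 2L, 41 on 2R, 29 on 3L, 46 on 3R, 43 on X and 0 of 50 on chromosome 4. They made up between 2.4% (3L) and 3.89% (X) of the genes above the minimums on each large arm. There were 7 pairs next to each other in the order of protein-coding genes, namely ush and cbt, vkg and Cg25C, Sox14 and Phm, Pif1B and Pif1A, Meltrin and kibra, 4EHP and Syx1A, and ogre and bou. In all of these except vkg with Cg25C and Meltrin with kibra, the annotated spans overlap. How many such pairs a like number of other genes would give was not computed.

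Overlap limits what can be assigned to a single gene. For RNA, the sources used here do not state whether counting used strand. For Pol2, ChIP reads do not tell the strand of transcription, so the limit holds however they were counted. Of the 186 matched genes, 85 overlapped another protein-coding gene, 12 of them lying wholly inside one, and 101 overlapped none. Overlap was not counted for the other genes above the minimums, so these counts are not read as a trait of the set. The 101 had a median RNA log2 ratio of 1.23 and a median length of 13.9 kb. Pif1A and Pif1B had the same values in both tables (1069 to 2368 in RNA) and are 1 measurement. CG12912, which lies inside Hr46, had nearly its values, 1318 to 4386 in RNA and 9446 to 9693 in Pol2, so its difference is not separate from that of Hr46. eIF4G2 (9608 to 20340.0) lies inside CG33111 (13662 to 27948), and both overlap CG34355, which was lower in RNA (7627 to 618). Some overlapping partners had other values. mRpL48, which overlaps frtz, had RNA values of 2188 and 1839, and Aldh, inside Shawl, fell from 51887 to 29035. Flo-2, which contains CG9503, had values of 5721 and 5229.7.

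Lists of markers of somatic cell types also held genes with higher RNA in the mutant, where 19.8% of the genes of all lists and 5.5% of all RNA genes were higher. Of the hemocyte list 2 of 14 genes were higher in RNA (summed values 39830.4 and 51889), of the fat body list 5 of 14 (457971 and 736105), of the neuron list 3 of 18 (47468 and 62119.5), of the muscle list 10 of 27 (128243 and 205371) and of the follicle cell list 5 of 22 (96164 and 151391.5), with 0 lower in each. The female germline list had 0 of 21 higher and 2 lower, bam and AGO3, with sums of 937605 and 835888. Among markers chosen for hemocytes, neurons and fat body, Pxn (123 to 605) and Lsp2 (1109 to 3594) were higher in the mutant. Hml had values of 89.3 to 269, NimC1 53.9 to 118, eater 9.6 to 43.5, brp 26 to 53.5, Syt1 24.2 to 20.1 and Fbp1 7.6 to 7.5. These were low in both genotypes and did not pass, and elav (584 to 1202) and Rfabg (67915 to 44921) did not pass either. Other genes of these lists were higher in the mutant, namely Appl (250.0 to 1217) and futsch (105 to 433) of the neuron list, and Lsd-1 (591 to 1637), Yp1 (156099 to 299856) and Yp2 (153242 to 307343) of the fat body list. Some listed genes were abundant in both genotypes and did not pass, such as crq (29791 to 33764), srp (4494 to 5777) and unc-13 (27784 to 31051). Of the follicle and muscle markers, tj (1908 to 5516) and Mhc (2309.7 to 7971) were higher in the mutant, and the germline gene vas (27695 to 30009) did not pass. The fat body list holds the yolk protein genes, which the ovary also transcribes. Of these lists the 190 genes include ush, Lsp2, Cg25C, Syx1A, Msp-300 and peb. The part of cell composition in the RNA differences was not tested.

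The rule fixes a level Pol2 ratio for the 190 genes, so the Pol2 values of the muscle list are given as a description. Of its 10 genes with higher RNA, 8 had a Pol2 log2 ratio above 0.2, 1 below -0.2 and 1, Msp-300, within the limits. sls (2024 to 9085) and bt (4343 to 18010.4) had Pol2 log2 ratios of 0.65 and 0.66, and bt was the 1 gene of the list with a passing Pol2 increase. Prm (797 to 1925), the 1 gene below -0.2, had a Pol2 log2 ratio of -0.59, a decrease that passed. On a list of 18 measured piRNA genes for cluster transcription and nuclear silencing 0 passed in RNA in either direction and 0 were members, with medians of 0.06 in RNA and -0.04 in Pol2.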

How the data were processed

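RNA-seq and Pol2 ChIP-seq tables of protein-coding genes were used, each holding 1 deposited signal per genotype and gene, with the authors' log2 fold change and p-value, made with DESeq using pooled dispersion from a parametric fit, per the file headers. Whether p was adjusted is not stated. The submitters' processing notes name cutadapt 1.2.1, TopHat2 2.0.8, Bowtie2 2.0.0, SAMtools, DESeq 1.16.0 and build dm3, without roles. The signal summed to 89336038 (wild type) and 85598452 (mutant) in RNA, and to 51692649 and 50036639 in Pol2. Depth per library and spread between replicates are unknown, so no test of a difference was run here. Ratios are plain ratios of the deposited values. The Cuff peaks, on dm3, were not used.

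The members and lists were chosen with earlier results of these data known, and functional groups after the members were seen. Any member could be named. Those given in full are the highest in ratio or wild-type RNA, the longest and shortest, list members and neighbours, and just outside each limit the 3 nearest genes. A gene counts as passing at a deposited p of 0.05 or less. Python 3.11.15 with pandas 2.3.3 was used. A separate copy of the rule was run on simulated data with genes planted inside every limit, which does not check the selection itself. Gene names and lengths came from a RefSeq table of assembly Release 6, whose coordinates are not printed since the tables use dm3. Some genes of the set are not reported here.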

Additional observations from a re-analysis of the deposited data

How the results depend on the processing

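The number of genes moved with the limits, from 190 to 569 at an RNA ratio of 1.5, 21 at a ratio of 3, 119 with Pol2 within 0.1, 75 with an RNA minimum of 5000, 435 with no RNA minimum (genes listed at 0 left out) and 101 without genes that overlap another, the last chosen after seeing the data. Those past the deposited p, 174 in the main selection, then numbered 271, 21, 111, 72, 225 and 94. The median gene length of 14.4 kb became 27.9 kb at a ratio of 3 and 7.14 kb with no RNA minimum. In the other alternatives these values stayed within 1.5 times. Centring Pol2 on level gave 177 genes, of which 165 were among the 190, and equal column totals gave 223, of which 179 were. The median RNA log2 ratio ran from 0.87 to 1.72. The Pol2 log2 ratio had a median of 0.53 among genes of the lowest Pol2 level class and -0.07 in the top one. No paired analysis was possible because each table holds 1 merged value per genotype, and for the same reason leaving out replicates, edgeR, DESeq2 and filters on low counts were not run. Differences smaller than the spread between libraries cannot be recognised here.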
